A study of Mus musculus with 22 samples.

Results

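The 10 genes described here mark the epithelial-mesenchymal transition in mouse cells, and they were taken by symbol from a table of read counts for 34489 genes in 22 RNA-seq libraries. Each of the 10 listed symbols matched 1 gene. Cdh1, Epcam, Esrp1 and Esrp2 stand on the epithelial side of the list, Cdh2 and Vim on the mesenchymal side, and Snai1, Snai2, Zeb1 and Zeb2 are the transcription factors. The libraries came from a study that asked whether activators of AMP-activated protein kinase (AMPK), the energy sensor of the cell, bring primed mouse epiblast stem cells (mEpiSCs) back to the naïve state. AICAR, A769662 and metformin were the activators used.

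The naïve reference was 1 library of mouse embryonic stem cells (mESCs) that carry a Rex1-GFP reporter on a 129/Ola background. Primed mEpiSCs gave 2 libraries. The first was the Oct4GIP line (129/Ola), in which Oct4 regulatory sequence drives GFP and puromycin resistance, grown on fibronectin-coated plates in medium with FGF2 and Activin A. The second was the 129/MSM line, from a cross of 129X1/SvJ and MSM/Ms mice, grown on mouse embryonic fibroblast (MEF) feeders with FGF2 and Activin A. Oct4GIP cells were then plated on MEF feeders and held in basal medium, in medium with 2 inhibitors and LIF (2iL), with AICAR or with AICAR+LIF, and each condition was sampled at day 8 (d8, 4 libraries) and at day 16 (d16, 4 libraries). The reverted cells had been expanded in 2iL on gelatin after d16. Of these, 4 Oct4GIP libraries were made after 2 or 3 passages, written d16+2p and d16+3p, with AICAR and AICAR+LIF at each. At 10 passages (d16+10p) there were 7 libraries. The Oct4GIP line gave 5 of them, reverted with AICAR, A769662 or metformin, where LIF was added to the metformin library and to 1 of the 2 libraries of each other activator, and the 129/MSM line gave 2, with AICAR and with AICAR+LIF. Each combination of line, treatment and time was sequenced once, each line is a single line, and no label ties libraries to separate cultures. A p-value here therefore measures the spread between such libraries, which may be technical or may come from the treatments pooled in a group.

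In an epithelial sheet, E-cadherin at the adherens junctions holds neighbouring cells together. During the epithelial-mesenchymal transition, factors of the Snail and Zeb families bind E-box motifs and repress Cdh1 and other epithelial genes, N-cadherin and vimentin come up, and cells loosen and migrate. Gastrulating epiblast cells make this transition as they pass through the primitive streak, and primed epiblast stem cells resemble the epiblast shortly before it. Esrp1 and Esrp2 hold many transcripts in their epithelial splice forms.

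Levels are given in CPM, the counts of a gene scaled to a common library total with factors from the trimmed mean of M-values (TMM). Library totals ran from 438771 counts (AICAR+LIF d8) to 5290163 (basal d16), with a median of 2848382, so that 3 counts corresponded to between 0.566 and 5.93 CPM. Summed levels of 5 naïve markers separated the naïve and reverted libraries from the primed cells and the cultures. They were 2970 CPM in the naïve mESCs, 2000 to 2480 CPM at d16+2p and d16+3p, and 2670 to 3570 CPM at d16+10p, against 16.9 to 24 CPM in primed cells and 1.89 to 20.9 CPM in the cultures. The 8 culture libraries were sampled on feeders, and 10 fibroblast markers summed to 625 to 1610 CPM at d8 and 1050 to 3530 CPM at d16. The same sum was 667 CPM in the primed 129/MSM library, with all 10 markers above 3 counts, and 55.2 CPM in the primed Oct4GIP library, in which Col6a3, Loxl1, Lum and Mfap5 had no count. In the naïve and reverted libraries it was 14.4 to 33.2 CPM. In bulk RNA, fewer cells of a type and less RNA per cell cannot be told apart. The part of feeder RNA in any member's level in the cultures was not tested.

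**Figure D1:**
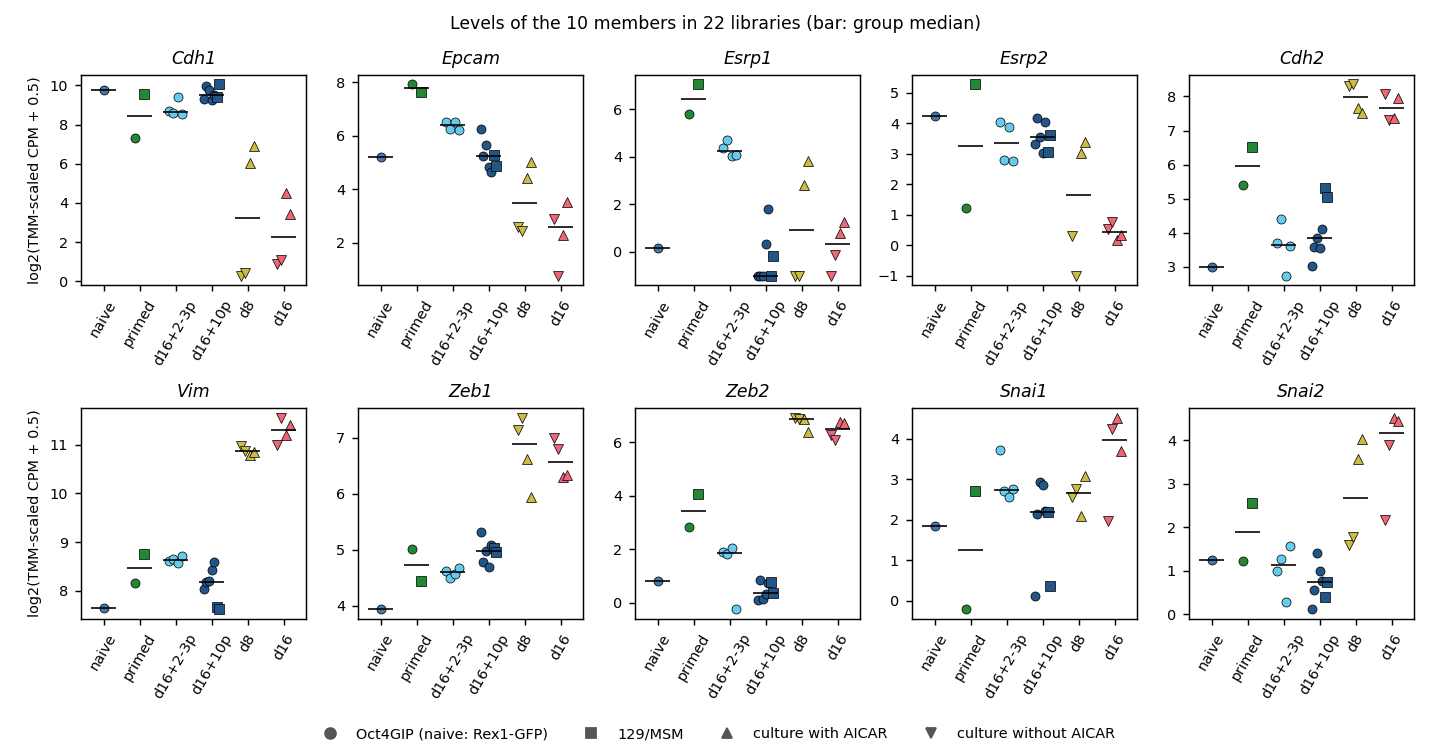
Level of each of the 10 genes, as log2(TMM-scaled CPM + 0.5), in the 22 libraries by group, with 1 point per library, shapes for line and AICAR, and a bar at the group median. Cdh1 was at least 367 CPM in all reverted libraries and at most 1.61 CPM in the cultures without AICAR, whereas Vim, Zeb1 and Zeb2 were highest in the cultures.

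Cdh1 encodes E-cadherin (ENSMUSG00000000303, chromosome 8, 106603351 to 106670246, plus strand, GRCm38). Its level was 884 CPM in naïve mESCs, 158 CPM in primed Oct4GIP cells and 743 CPM in primed 129/MSM cells. Among the reverted libraries it was 409 CPM in AICAR d16+2p, 390 CPM in AICAR+LIF d16+2p, 685 CPM in AICAR d16+3p and 367 CPM in AICAR+LIF d16+3p. At d16+10p the lowest of 7 libraries had 601 CPM, the median was 726 CPM and the highest had 1073 CPM. The primed lines thus lay on opposite sides of the early reverted libraries, and the 129/MSM line lay inside the d16+10p range. The cultures were far lower. Basal medium gave 0.724 CPM at d8 and 1.32 CPM at d16, and 2iL gave 0.829 and 1.61 CPM, which rested on 2 to 7 counts a library. AICAR alone gave 65.3 CPM at d8 and 22.5 CPM at d16, and AICAR+LIF gave 121 and 10.2 CPM, so the culture groups with and without AICAR did not overlap. The order of the group means was naïve mESCs, d16+10p (801 ± 186 CPM, SD, n = 7), d16+2-3p (463 ± 149 CPM, SD, n = 4), primed (451 ± 414 CPM, SD, n = 2), d8 (46.9 ± 57.8 CPM, SD, n = 4) and d16 (8.89 ± 9.94 CPM, SD, n = 4). Ranges overlapped between d16+10p, d16+2-3p and primed cells and between d8 and d16. No main edgeR comparison between these neighbours passed for Cdh1. Among the alternative fits it passed between d16 and d8 in 4, limma voom among them, and between d16+10p and d16+2-3p in 1. Cdh1 and Esrp2 lie on chromosome 8. The median gene of that chromosome stood 0.39 to 0.40 above the other chromosomes on the log2 scale in 3 libraries, namely naïve mESCs (Cdh1 at 884 CPM), AICAR d16+3p (685 CPM) and AICAR+LIF d16+10p of 129/MSM (1073 CPM), against -0.16 to 0.03 in all others. Its part in those Cdh1 levels was not tested.

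Epcam, an epithelial adhesion molecule of the cell surface (ENSMUSG00000045394, chromosome 17, 87635979 to 87651129, plus strand), ran in another order. It was highest in the primed cells, at 243 CPM in Oct4GIP and 195.5 CPM in 129/MSM, and the naïve mESCs had 36.6 CPM. The reverted cells had 91.5, 75.7, 91.8 and 73.4 CPM at d16+2-3p in the order given for Cdh1, and 24.4 to 75.9 CPM at d16+10p with a median of 37.6 CPM. The cultures had the least, from 1.20 CPM (2iL d16) to 31.6 CPM (AICAR+LIF d8). Basal medium gave 5.43 and 6.79 CPM, 2iL 4.98 and 1.20 CPM, AICAR 20.8 and 4.37 CPM, and AICAR+LIF 31.6 and 10.9 CPM at d8 and d16, respectively. Epcam and Cdh1 are both epithelial, yet the primed Oct4GIP library had the highest Epcam level and the lowest Cdh1 level of the 14 libraries of naïve, primed and reverted cells.

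Snail and Zeb factors recognise the E-box CAGGTG, which reads CACCTG on the other strand. Of the members, Epcam, Snai1, Vim and Zeb2 had entries in the RefSeq promoter table (GRCm38.p6, 7 windows), and the 250 bases before the start were searched for these letters on both strands. Of 32851 such windows, 17.2% held at least 1 match and 2.06% held at least 2. The Epcam window, chr17:87635729-87635978 on the plus strand, held 2 matches, starting 187 and 19 bases before the start, and the Snai1 window, chr2:167537945-167538194 on the plus strand, held 1 match, starting 126 bases before it. They are shown because these are the member windows with a match, 1 for an epithelial gene and 1 for a Snail factor itself, with the matches in capitals. The Vim window and the 4 Zeb2 windows held none of these letters. A match describes the sequence only.
Epcam: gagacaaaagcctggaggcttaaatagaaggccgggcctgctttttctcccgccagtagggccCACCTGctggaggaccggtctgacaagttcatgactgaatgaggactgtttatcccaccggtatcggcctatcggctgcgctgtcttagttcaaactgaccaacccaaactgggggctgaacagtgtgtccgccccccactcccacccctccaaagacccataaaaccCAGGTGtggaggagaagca
Snai1: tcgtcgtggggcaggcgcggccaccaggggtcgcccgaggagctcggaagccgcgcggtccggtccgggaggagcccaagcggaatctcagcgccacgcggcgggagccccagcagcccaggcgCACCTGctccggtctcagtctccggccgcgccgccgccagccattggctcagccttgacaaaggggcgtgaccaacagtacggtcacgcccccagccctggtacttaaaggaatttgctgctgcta

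Esrp1 and Esrp2 encode the epithelial splicing regulatory proteins (ENSMUSG00000040728, chromosome 4, 11331933 to 11386783, minus strand, and ENSMUSG00000084128, chromosome 8, 106130319 to 106136974, minus strand). Esrp1 was a gene of the primed cells, with 55.2 CPM in Oct4GIP and 133 CPM in 129/MSM. It stood at 20.4, 25.9, 16.0 and 16.5 CPM in the d16+2-3p libraries. At d16+10p, 4 of 7 libraries had no count, the other 3 had 1, 2 and 10 counts, and the highest level was 2.98 CPM (metformin+LIF). The naïve mESCs had 2 counts, or 0.621 CPM. The 3 states therefore stood in steps for Esrp1, with no overlap between primed, d16+2-3p and d16+10p libraries. In the cultures Esrp1 had no count in basal medium or in 2iL d8 and 1 count in 2iL d16, while AICAR gave 6.63 CPM at d8 and 1.25 CPM at d16 and AICAR+LIF gave 13.8 and 1.88 CPM, on 4 to 7 counts each.

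Esrp2 took no such course. It was 18.3 CPM in the naïve mESCs, 1.84 CPM in primed Oct4GIP cells and 38.2 CPM in primed 129/MSM cells. The 4 libraries at d16+2-3p had 16.0, 6.47, 14.2 and 6.33 CPM, and the 7 at d16+10p ran from 7.54 to 17.5 CPM with a median of 11.1 CPM. The primed lines were the lowest and the highest of the 14 libraries outside the cultures. In the cultures Esrp2 was at 7.57 CPM in AICAR d8 and 9.88 CPM in AICAR+LIF d8, on 8 and 5 counts, and at or below 1.20 CPM in the other 6. The share of Esrp1 in the summed Esrp counts, which are not corrected for length, was 96.8% in primed Oct4GIP cells (95% exact binomial interval 92.6 to 98.9%) and 77.6% in primed 129/MSM cells (73.9 to 81.1%). It was 56.1, 80.0, 53.0 and 72.3% at d16+2-3p, between 0 and 15.9% at d16+10p, and 3.28% in the naïve mESCs (0.4 to 11.3%). Primed and d16+2-3p libraries did not overlap with d16+10p libraries in this share, and the 4 shares of 0 at d16+10p had upper limits of 6.6 to 20.6%. These intervals cover counting error only.

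**Figure D2:**
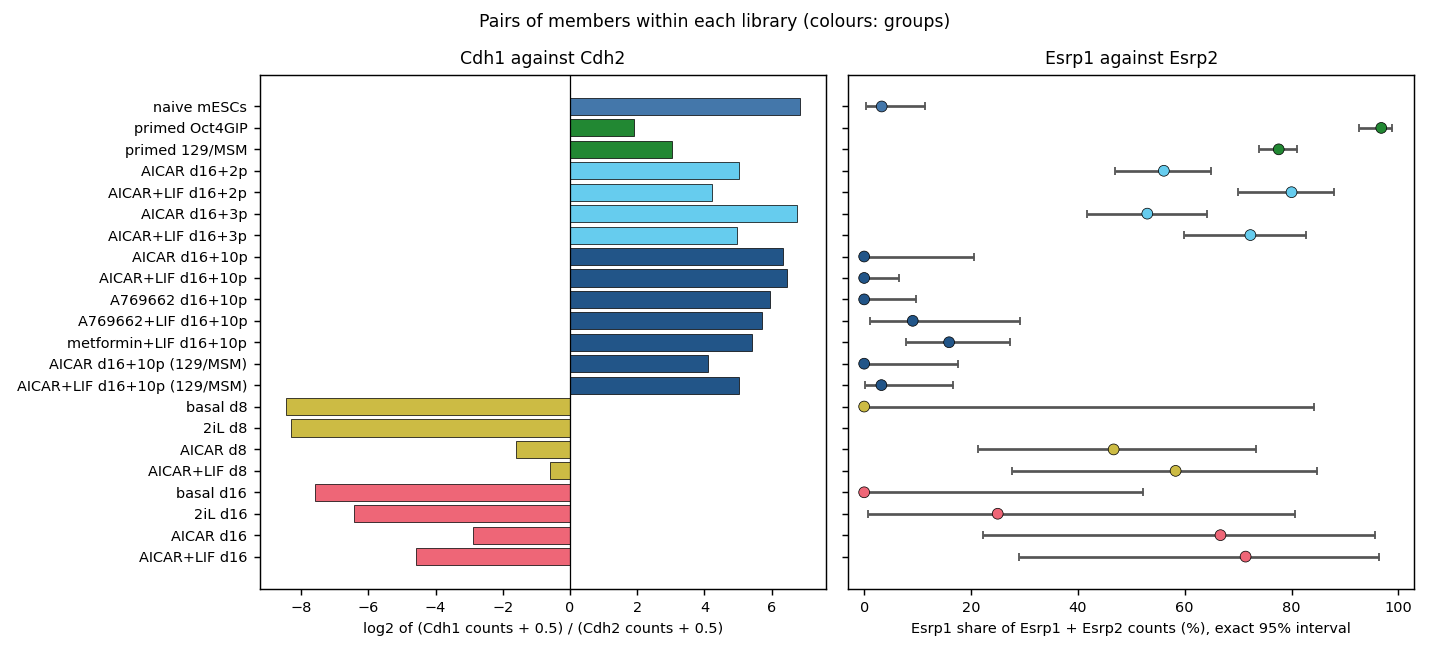
Left, bars give the log2 ratio of Cdh1 to Cdh2 counts (0.5 added to each) per library, coloured by group, and right, points give Esrp1 as a percent of the summed Esrp1 and Esrp2 counts with 95% exact binomial intervals. The ratio was positive in every naïve, primed and reverted library and negative in every culture, and the Esrp1 share was at most 15.9% at d16+10p against at least 53.0% in primed and d16+2-3p cells.

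Cdh2 encodes N-cadherin (ENSMUSG00000024304, chromosome 18, 16588877 to 16809246, minus strand). Its level was 7.45 CPM in naïve mESCs, 41.6 CPM in primed Oct4GIP cells and 91.0 CPM in primed 129/MSM cells. The reverted cells had 12.4, 20.5, 6.17 and 11.6 CPM at d16+2-3p. The 5 Oct4GIP libraries at d16+10p had 7.65, 11.4, 13.9, 11.3 and 16.7 CPM, and the 2 of 129/MSM had 39.2 and 32.5 CPM, so in each line Cdh2 was below the primed library of that line. The cultures were the highest, with 318, 329, 201 and 184 CPM at d8 and 271, 156.5, 166 and 246.5 CPM at d16 for basal, 2iL, AICAR and AICAR+LIF. Within a library, the log2 ratio of Cdh1 to Cdh2 was 6.86 in naïve mESCs, 1.92 and 3.03 in the primed lines, 4.23 to 6.75 at d16+2-3p and 4.12 to 6.46 at d16+10p. It was -8.46 to -6.44 in the cultures without AICAR, and -1.61, -0.60, -2.88 and -4.58 in AICAR d8, AICAR+LIF d8, AICAR d16 and AICAR+LIF d16. Ratios between these genes were not corrected for length and are compared only across libraries.

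Vim encodes vimentin, the intermediate filament of mesenchymal cells (ENSMUSG00000026728, chromosome 2, 13573927 to 13582826, plus strand). It was 199.5 CPM in naïve mESCs and 287 and 432 CPM in the primed lines. The reverted cells had 392, 405, 378 and 420 CPM at d16+2-3p and 197 to 386 CPM at d16+10p, with a median of 290.3 CPM. In the cultures it was 2006, 1876, 1760 and 1848 CPM at d8 and 2038, 3011, 2336 and 2714 CPM at d16 in the order basal, 2iL, AICAR and AICAR+LIF. Vim was therefore present in every library and at least 1760 CPM in each culture against at most 432 CPM elsewhere.

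Zeb1 and Zeb2 are zinc finger repressors of epithelial genes (ENSMUSG00000024238, chromosome 18, 5591860 to 5775467, plus strand, and ENSMUSG00000026872, chromosome 2, 44983632 to 45117395, minus strand). Zeb1 was 14.9 CPM in naïve mESCs, 32.0 and 21.2 CPM in the primed lines, 22.1 to 25.0 CPM at d16+2-3p and 25.3 to 39.4 CPM at d16+10p. It was 141, 164, 97.5 and 61.3 CPM in the d8 cultures and 127, 111, 78.3 and 80.2 CPM in the d16 cultures, so that every culture lay above every other library. Zeb2 was 1.24 CPM in naïve mESCs and 6.62 and 16.1 CPM in the primed lines. It was 3.26, 3.04, 3.63 and 0.351 CPM at d16+2-3p, and 0.588 to 1.30 CPM at d16+10p, on 1 to 4 counts a library. In the cultures it stood at 121, 115, 117 and 83.0 CPM at d8 and 77.5, 67.8, 108 and 104 CPM at d16. Zeb1 was thus well detected in all states, while Zeb2 was at the limit of detection in the d16+10p cells.

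Snai1 and Snai2, the Snail and Slug repressors (ENSMUSG00000042821, chromosome 2, 167538195 to 167542814, plus strand, and ENSMUSG00000022676, chromosome 16, 14705852 to 14709385, plus strand), were low throughout. Snai1 was 3.10 CPM in naïve mESCs, 0.368 CPM (1 count) in primed Oct4GIP cells and 6.0 CPM in primed 129/MSM cells. It was 12.7, 6.09, 5.45 and 6.33 CPM at d16+2-3p and 0.588 to 7.09 CPM at d16+10p. Its cultures had 5.43, 6.22, 3.79 and 7.91 CPM at d8 and 3.40, 18.5, 22.5 and 12.4 CPM at d16. Snai2 did not exceed 5.37 CPM in naïve, primed or reverted cells. In the cultures Snai2 was 2.53, 2.90, 11.4 and 15.8 CPM at d8 and 3.96, 14.4, 22.5 and 21.1 CPM at d16, with basal medium the lowest at both days.

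The first comparison asked how the reverted cells at d16+10p (7 libraries) differed from the primed cells (2 libraries) they came from. Esrp1, Zeb2, Epcam and Cdh2 were lower in the reverted cells, and no member was higher. Epithelial and mesenchymal members were both among the 4 that fell. Esrp1 fell from a mean of 93.9 to 0.589 CPM (log2 fold change -7.05, SE 0.884, edgeR's quasi-likelihood test with Benjamini-Hochberg adjustment over 18739 genes, adjusted p = 3.32e-06). Zeb2 fell 12.3-fold (-3.54, SE 0.414, adjusted p = 1.43e-06 in edgeR), Epcam 5.42-fold (-2.45, SE 0.426, adjusted p = 1.3e-04) and Cdh2 3.5-fold (-1.81, SE 0.430, adjusted p = 0.00242), and none of the 4 overlapped between groups. For Cdh1 the log2 fold change was 0.83 with an SE of 0.950 (adjusted p = 0.536 in edgeR), and for Zeb1 0.24 with an SE of 0.276 (adjusted p = 0.546). Values for Vim were -0.34 (SE 0.208), for Esrp2 -0.79 (SE 0.722), for Snai1 0.30 (SE 0.781) and for Snai2 -1.52 (SE 0.678), all with adjusted p of at least 0.0847 in edgeR. Across all genes tested 36.6% were called, 16.7% higher and 19.9% lower, beside 0 and 4 of 10 members. The median log2 fold change of the members was -1.16 and that of all genes -0.01. Without the primed 129/MSM library, which carried fibroblast markers, Epcam, Esrp1 and Zeb2 still passed in edgeR and Cdh2 did not (-1.14). That fit kept the 2 reverted 129/MSM libraries, with Cdh2 at 39.2 and 32.5 CPM, against a primed arm of Oct4GIP alone at 41.6 CPM. Within the Oct4GIP line Cdh2 was at -1.74.

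Because the primed lines differed, the change from primed to d16+10p was also fitted for each line, a fit chosen after seeing the data, in which each line's lone primed library was assumed to vary like the other groups. In Oct4GIP 4 of 10 members passed, beside 30.1% of all genes, and in 129/MSM 5 of 10, beside 18%. Cdh2, Epcam, Esrp1 and Zeb2 fell in each line, with log2 fold changes of -1.74 and -1.34 for Cdh2, -2.51 and -2.54 for Epcam, -5.97 and -9.08 for Esrp1, and -2.79 and -3.95 for Zeb2 in Oct4GIP and 129/MSM, respectively. Vim fell in 129/MSM (-1.11, SE 0.223, adjusted p = 0.00176 in edgeR) and was at 0.14 (SE 0.208) in Oct4GIP. Esrp2, Snai1 and Zeb1 (-0.04 in Oct4GIP and 0.57 in 129/MSM) also had opposite signs in the lines. Esrp2 was at 2.72 (SE 1.14) in Oct4GIP and -1.96 (SE 0.883) in 129/MSM, and Snai1 at 3.51 (SE 1.45) and -1.30 (SE 1.01). The difference between lines passed for 0 of 10 members in edgeR, with 3 at an unadjusted p under 0.05, beside 1.35% of all genes. Those 3 were Vim (difference 1.25, SE 0.312, adjusted p = 0.0517), Esrp2 (4.68, SE 1.45, adjusted p = 0.115) and Snai1 (4.80, SE 1.78, adjusted p = 0.185). The primed 129/MSM library had 667 CPM of fibroblast markers against at most 24.1 CPM in the 2 reverted 129/MSM libraries, and the part of that in the fall of Vim was not tested.

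**Figure D3:**
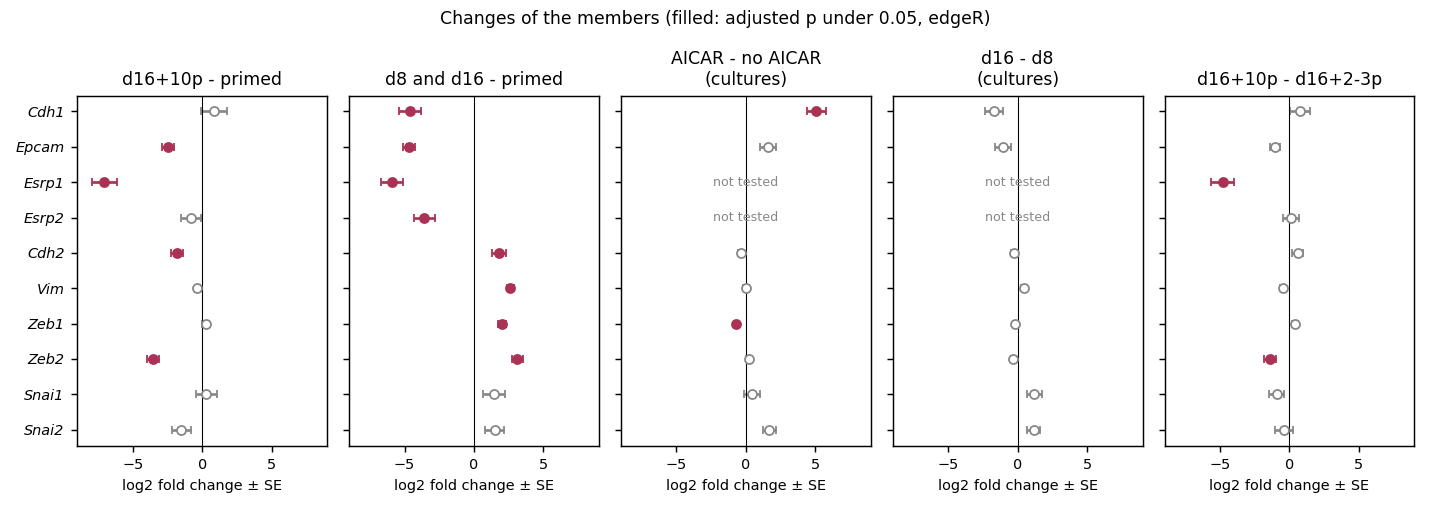
Log2 fold change of each member with its standard error (edgeR) in the comparisons of the report, with filled points for an adjusted p under 0.05. Esrp1, Epcam, Cdh2 and Zeb2 fell at d16+10p, the epithelial members fell and Vim, Zeb1, Zeb2 and Cdh2 rose in the cultures against primed cells, and Cdh1 rose with AICAR.

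The second comparison set the 8 cultures on feeders at d8 and d16 against the same 2 primed libraries. The 4 epithelial members were lower and Vim, Zeb1, Zeb2 and Cdh2 were higher in the cultures. Epcam was 20.4-fold lower on the means (log2 fold change -4.68, SE 0.436, adjusted p = 2.33e-07 in edgeR) and Cdh1 16.2-fold lower (-4.63, SE 0.816, adjusted p = 2.12e-04). Esrp1 was 31.3-fold lower (-5.90, SE 0.816, adjusted p = 2.01e-05 in edgeR) and Esrp2 7.38-fold lower (-3.58, SE 0.749, adjusted p = 9.49e-04), the latter with overlapping groups. The mesenchymal members moved the other way. Zeb2 was 8.74-fold higher (3.11, SE 0.394, adjusted p = 7.75e-06 in edgeR), Vim 6.11-fold (2.60, SE 0.251, adjusted p = 3.48e-07), Zeb1 4.04-fold (2.03, SE 0.299, adjusted p = 3.69e-05) and Cdh2 3.53-fold (1.82, SE 0.497, adjusted p = 0.00717). Snai1 (1.44, SE 0.801) and Snai2 (1.49, SE 0.688) did not pass, with adjusted p = 0.165 and 0.0952 in edgeR. The 8 members called compare with 37.5% of all genes, 18.1% higher and 19.4% lower. Of these calls, that of Esrp2 rested on the primed 129/MSM library (-0.21 without it, adjusted p = 0.934 in edgeR) and that of Cdh2 on the primed Oct4GIP library (1.36 without it, adjusted p = 0.13). Without the primed 129/MSM library Snai1 passed (4.39, adjusted p = 0.0268 in edgeR), and the primed arm was then 1 count in 1 library.

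Feeder cells themselves belong to the mesenchymal side, so the fibroblast markers are set beside these values. The study proposes that the stem cells may pass through mesoderm or another germ layer in these cultures. The marker sum cannot tell feeders from mesenchymal cells formed in this way. All 10 markers were above 3 counts in 7 of the 8 cultures, and 9 were in AICAR+LIF d8. Against primed cells, 6 of 10 rose in the cultures and none fell (median log2 fold change 2.41, against 0.04 for all genes). Among the cultures Vim and the marker sum were both highest in 2iL d16 (3011 CPM and 3530 CPM) and next in AICAR+LIF d16 (2714 CPM and 2780 CPM). The order was not shared at d8, where basal medium and 2iL had more Vim (2006 and 1876 CPM) than AICAR (1760 CPM) and lower marker sums (928 and 625 CPM against 1610 CPM). Zeb2 was lowest in 2iL d16. Neural markers also rose, 4 of 5 of them, and summed to 854 to 3420 CPM at d8 and 453 to 845 CPM at d16, against 225 to 356 CPM in primed cells. Pluripotency markers summed to 140 to 316 CPM in the cultures against 1070 to 1420 CPM in primed cells. Taken singly, 4 of these 5 markers were called lower in the cultures and 1 higher in edgeR. Their sum thus mixes both directions and is no measure of the stem cells that remained. The parts of feeder, newly formed mesenchymal, neural and remaining stem cells in the members' changes were not tested.

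**Figure D4:**
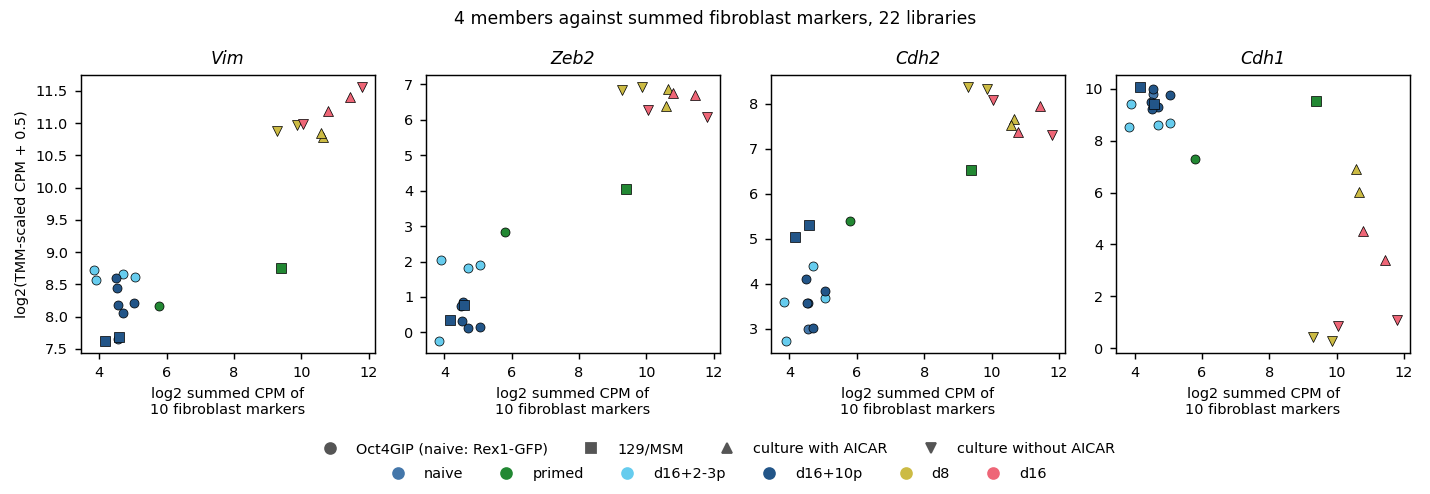
Levels of Vim, Zeb2, Cdh2 and Cdh1, as log2(TMM-scaled CPM + 0.5), against the log2 summed CPM of 10 fibroblast markers, with 1 point per library, coloured by group and shaped by line and AICAR. The 8 cultures lie at 625 to 3530 CPM of marker sum, the primed 129/MSM library at 667 CPM and all naïve, reverted and primed Oct4GIP libraries at 55.2 CPM or less.

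The third comparison asked what AICAR, with or without LIF (4 libraries), changed in these cultures against basal medium and 2iL (4 libraries), with day as a covariate. Cdh1 was higher and Zeb1 lower with AICAR. Cdh1 had a mean of 54.6 CPM with AICAR against 1.12 CPM without (log2 fold change 5.06, SE 0.678, adjusted p = 0.00813 in edgeR), and was higher in 4 of 4 libraries. Against the level of primed Oct4GIP cells, it stood at 41.3% in AICAR d8, 76.2% in AICAR+LIF d8, 14.2% in AICAR d16 and 6.42% in AICAR+LIF d16, and at 0.458 to 1.01% without AICAR. Zeb1 had a mean of 79.3 CPM with AICAR and 136 CPM without (-0.71, SE 0.161, adjusted p = 0.0326 in edgeR), and the groups did not overlap. Of the 10 members 8 had enough counts to be tested, and 2 of them passed beside 9.25% of all 14660 genes, of which 3.53% were higher and 5.72% lower. Snai2 was at 1.69 (SE 0.461, adjusted p = 0.0548 in edgeR) and Epcam at 1.57 (SE 0.571, adjusted p = 0.114), while Vim was at -0.01 and Zeb2 at 0.22. The Zeb1 call was lost in 7 of the 8 fits that left out 1 library, with adjusted p of 0.0699 to 0.0859 in edgeR, while the Cdh1 call held in all 8.

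The AICAR d8 and AICAR+LIF d8 libraries were the shallowest, at 956357 and 438771 counts, and without them no member passed in edgeR (3 at an unadjusted p under 0.05), Cdh1 being at 3.46 with adjusted p = 0.0729. A fit with an AICAR term for each day, chosen after seeing the data, called Cdh1, Esrp1 and Esrp2 at d8, beside 8.26% of all genes. There Cdh1 was at 6.91 (SE 0.632, adjusted p = 0.00599 in edgeR), Esrp1 at 7.70 (SE 1.47, adjusted p = 0.0271) and Esrp2 at 4.42 (SE 0.945, adjusted p = 0.031). Esrp1 and Esrp2, not tested in the fit above, passed the filter of this fit only through AICAR d8 and AICAR+LIF d8. Esrp1 had 7 counts in each of these libraries, and Esrp2 had 8 and 5. Their calls at d8 are therefore no separate support for a change. At d16 it called only Cdh1 of the 10 members (3.46, SE 0.554, adjusted p = 0.0297 in edgeR), beside 2.12%. The difference between days passed for 0 of 10 members in edgeR, beside 0.136% of all genes, and 2 had an unadjusted p under 0.05. These were Cdh1 (-3.45, SE 0.930, adjusted p = 0.169) and Esrp2 (-5.02, SE 1.34, adjusted p = 0.166). Pou5f1, the Oct4 gene, was also higher in each culture with AICAR than in any without, and was 14.2 CPM in AICAR d8, 35.6 CPM in AICAR+LIF d8, 3.75 CPM in AICAR d16 and 21.5 CPM in AICAR+LIF d16, where the cultures without AICAR had 0.755 to 1.45 CPM. Nanog, another pluripotency gene, was 22.7, 75.1, 4.37 and 29.0 CPM in the same order, against 1.45 to 4.81 CPM. At d16 both were higher in AICAR+LIF than in AICAR, and Cdh1 was lower. The summed level of 5 pluripotency markers was 261 CPM in AICAR d8 and 249 CPM in AICAR+LIF d8, where basal medium had 184 CPM and 2iL 238 CPM. By d16 it was 140 CPM in AICAR and 163 CPM in AICAR+LIF, below basal medium (316 CPM) and 2iL (170 CPM). The 5 markers were Pou5f1, Nanog, Sox2, Sall4 and Utf1. In 2iL d16 Sall4 and Utf1 had no count, and Pou5f1 and Nanog were at most 1.45 and 4.81 CPM. Nearly all of the 170 CPM there was therefore Sox2. At d16 the sum did not follow Pou5f1, which was higher in each culture with AICAR. Taken singly over both days, 3 of the 4 markers tested were called higher with AICAR in edgeR and none lower (median log2 fold change 3.15), beside 3.53% of all genes higher. Without AICAR d8 and AICAR+LIF d8 none of the 4 was called (median 3.01). Fibroblast markers summed to 1610, 1530, 1760 and 2780 CPM with AICAR and 928, 625, 1050 and 3530 CPM without, and 3 of 10 were called higher. The part of remaining stem cells in the Cdh1 level was not tested.

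The fourth comparison set d16 against d8 within the cultures. No member of the 8 tested passed in edgeR, whereas 31.3% of all genes did, 17.8% higher and 13.5% lower. Of the 3 with an unadjusted p under 0.05, Vim was at 0.43 (adjusted p = 0.0945) with every d16 library above every d8 library, Snai2 at 1.17 (adjusted p = 0.0879) and Cdh1 at -1.74 (adjusted p = 0.0711). DESeq2 called 1 member, Vim (0.44, adjusted p = 0.041), and limma voom called 1, Cdh1 (-2.12, adjusted p = 0.018). Without the basal d16 library edgeR called 5 members. The share of all genes called in that fit is not given here, so this count shows only that the result depends on that library.

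The fifth comparison asked what changed in reverted cells between d16+2-3p (4 libraries) and d16+10p (7 libraries). Esrp1 and Zeb2 were lower at 10 passages. Esrp1 fell from a mean of 19.7 ± 4.57 CPM (SD, n = 4) to 0.589 ± 1.09 CPM (SD, n = 7), with a log2 fold change of -4.80 (SE 0.836, adjusted p = 0.00113 in edgeR). This call held in all 17 other fits, at -6.37 to -4.51. Zeb2 was at -1.41 (SE 0.442, adjusted p = 0.0484 in edgeR) with overlapping groups on 1 to 11 counts a library, and the call was lost in 10 of the 11 fits that left out 1 library, with adjusted p of 0.0524 to 0.16. Epcam (-1.05, SE 0.369, adjusted p = 0.0794 in edgeR), Vim (-0.49, SE 0.164, adjusted p = 0.0631) and Zeb1 (0.40, SE 0.217, adjusted p = 0.286) did not pass, although Zeb1 was higher in every d16+10p library than in any d16+2-3p library. The 2 members called compare with 9.35% of all genes, 4.75% higher and 4.61% lower. This comparison shares its d16+10p libraries with the first. At 10 passages the activators stood side by side in single Oct4GIP libraries, with Cdh1 at 639 CPM after AICAR and 870 CPM after A769662, and at 1011, 601 and 726 CPM after AICAR+LIF, A769662+LIF and metformin+LIF, which allows no test between them. The order of AICAR and A769662 differed with and without LIF.

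Other genes of the same pathway were counted by list, beside 16.7% of all genes higher and 19.9% lower in the first comparison. Of 27 epithelial junction genes, 1 rose and 13 fell at d16+10p against primed cells (median log2 fold change -1.42). Krt18 and Krt8, keratins of simple epithelia, fell from 217 to 3.11 CPM (-6.17) and from 329 to 7.18 CPM (-5.56), and Cgn, the tight junction protein cingulin, from 96.7 to 10.7 CPM (-3.16). Dsg2, a desmosomal cadherin, rose from 28.6 to 143 CPM (2.32, adjusted p = 0.0034 in edgeR). Of 8 epithelial transcription factors, 1 rose and 2 fell, and the gene that rose was Elf3 (11.8 to 123 CPM, 3.36). Of 19 mesenchymal matrix and cytoskeleton genes, 15 fell and 1 rose (median -4.14), among them Thbs1 (-7.23), Acta2 (-6.45) and Col1a1 (-5.17), while Fn1, fibronectin, rose from 669 to 2537 CPM (1.92, adjusted p = 0.0357 in edgeR). Of 10 fibroblast markers, 7 fell as well, and none rose. Without the primed 129/MSM library, 3 junction genes rose and 9 fell, 1 matrix gene rose and 7 fell, and 1 fibroblast marker fell, where 14.2% of all genes rose and 14.6% fell. Of the other lists, 4 of 9 mesenchymal transcription factors, 6 of 10 TGF-beta pathway genes, Smad3 (-1.17) and Smad4 (-0.48) included, and 1 of 5 other cadherins fell with none higher. Without the primed 129/MSM library these became 1 lower and 1 higher of the mesenchymal factors, 1 lower of the TGF-beta genes and 0 of the other cadherins in edgeR. Of 6 splicing regulators found, Hnrnpm rose (0.55) and Mbnl2 fell (-1.68).

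In the cultures against primed cells, 17 of 27 junction genes fell and none rose (median -2.12), beside 19.4% of all genes lower and 18.1% higher. Spint1 and St14, a membrane protease inhibitor and its protease, fell from 83.0 to 8.66 CPM (-3.86) and from 117 to 20.5 CPM (-3.18), and F11r, a junctional adhesion molecule, from 120 to 20.8 CPM (-2.79). Of 8 epithelial transcription factors 4 fell, with Grhl3, a grainyhead factor, at -4.14. Of 19 matrix genes 10 rose and none fell (median 1.86). The fibrillar collagens led, with Col3a1 at 6.05, Col1a1 at 5.35 and Col1a2 at 4.75, while 6 of 10 fibroblast markers rose as well. Of 9 mesenchymal transcription factors 4 rose and 2 fell, with Tcf4 at 2.11. Cdh11 (3.39) and Cdh4 (2.15) were among 3 of 5 other cadherins that rose, and Tgfb2 (3.04), a ligand that drives the transition, among 4 of 10 TGF-beta genes that rose against 2 that fell. Mbnl1 (2.10) and Rbfox2 (1.17), splicing regulators, rose, and Ptbp1 (-0.95), another, fell. Medians over these lists stand beside 0.04 for all genes tested. Without the primed 129/MSM library, 9 junction genes fell and 2 rose (median -1.45), 13 matrix genes and 9 fibroblast markers rose with none lower, 3 mesenchymal factors rose and 1 fell, 3 epithelial factors fell, and 4 TGF-beta genes rose with none lower, where 14.5% of all genes rose and 16.1% fell.

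**Figure D5:**
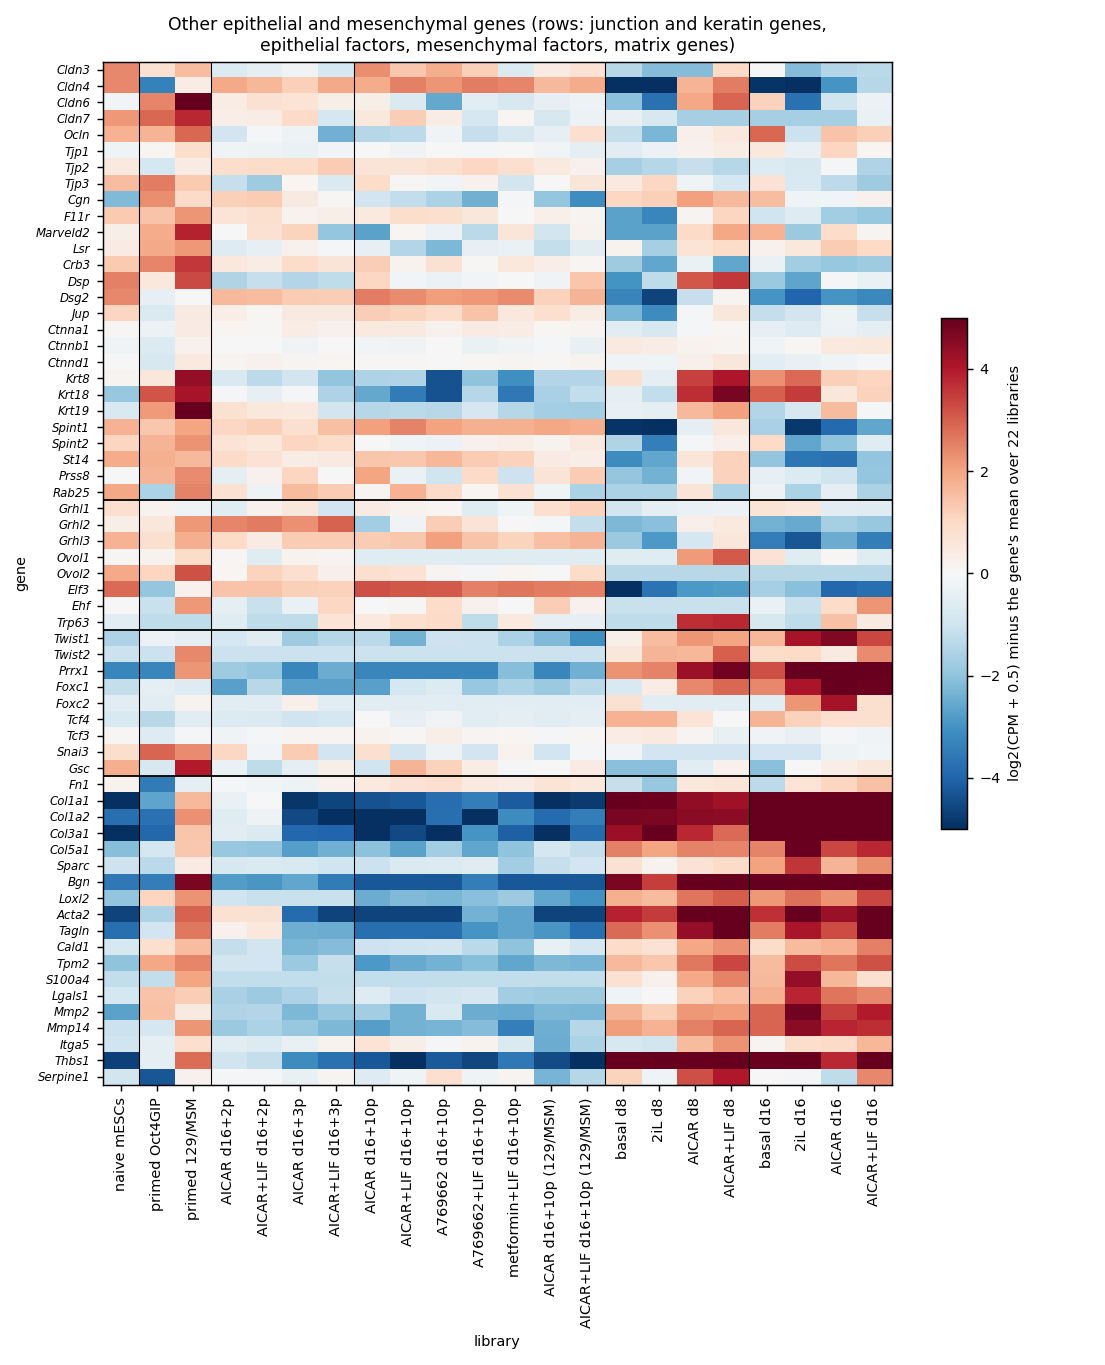
Level of each junction gene, epithelial factor, mesenchymal factor and matrix gene (from top to bottom) in each of the 22 libraries, as log2(CPM + 0.5) minus the gene's mean over libraries, from blue (low) to red (high). Matrix genes were lower in 15 of 19 at d16+10p against primed cells and higher in 10 of 19 in the cultures, and junction genes were lower in 13 and 17 of 27.

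With AICAR in the cultures, 3 of 22 junction genes tested rose and none fell (median 1.09, against -0.02 for all genes), beside 3.53% of all genes higher and 5.72% lower. Dsp, the desmosomal protein desmoplakin, was 156 CPM in AICAR d8, 209.5 CPM in AICAR+LIF d8, 16.5 CPM in AICAR d16 and 13.9 CPM in AICAR+LIF d16, against 1.81 to 7.05 CPM without AICAR (3.84, SE 0.723, adjusted p = 0.0199 in edgeR). Outside the naming rule and picked after its values were seen, the tight junction gene Cldn4 was at 65.3, 121, 2.18 and 7.15 CPM with AICAR and had 1 count in all 4 libraries without it. Krt8 and Krt18, picked in the same way, were at 315 and 486 CPM and at 212 and 449 CPM in AICAR d8 and AICAR+LIF d8, but at 65.5 and 61.7 CPM and at 24.3 and 36.1 CPM at d16, below basal medium and 2iL at that day. Of 19 matrix genes 3 also rose, with Itga5 at 1.83 and Cald1 at 1.12. Cdh6 (1.34) and Mbnl1 (1.13) rose and Tcf4 fell (-0.95). Without AICAR d8 and AICAR+LIF d8, edgeR called 0 genes of the whole table in this comparison, with 3010 at an unadjusted p under 0.05.

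From d8 to d16, 9 of 19 matrix genes rose and none fell (median 1.51), beside 17.8% of all genes higher and 13.5% lower, with Col3a1 at 4.35, Col1a2 at 2.86 and Col1a1 at 2.74. Of 10 fibroblast markers 6 rose and none fell. Of 10 TGF-beta genes 4 rose, among them Tgfbr3 (2.90), Tgfb2 (2.55) and Tgfb3 (1.95), while the receptor Tgfbr1 (-1.54) and Smad4 (-0.84) fell. Of 22 junction genes tested 2 fell and none rose. Without AICAR d8 and AICAR+LIF d8, 5 of 18 matrix genes, 3 of 10 fibroblast markers and 4 of 20 junction genes rose with none lower, where 14.5% of all genes rose and 10.1% fell. Between d16+2-3p and d16+10p, 4.75% of all genes were higher and 4.61% lower. Cgn fell (-2.19), 5 of 19 matrix genes fell, Loxl2 among them (-1.27), and Elf3 rose (1.55).

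Across the 22 libraries, the log2 levels of Cdh1 and Zeb1 had a Pearson r of -0.924, Cdh1 and Vim -0.882, Vim and Zeb2 0.935, and Cdh2 and Zeb2 0.93. Esrp1 went least with the others, at 0.305 with Cdh1, -0.117 with Vim and -0.403 with Zeb1. Its highest value was 0.632, with Epcam. These values describe libraries that fall into a few states and share lines and feeders, and they carry no test. Among 11048 genes, those most like Cdh1 were Polr3g (r = 0.969), Dact2 (0.961), Nodal (0.959) and the predicted genes Gm7803 (0.958) and Gm5424 (0.956), which may share reads with near copies. Those most like Vim were Ildr2 (0.978), Col12a1 (0.973), Vcam1 (0.97), Reep3 (0.966) and Meis1 (0.963).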

How the data were processed

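Total RNA of 22 samples was sequenced by the authors with a stranded mRNA kit and single reads. According to the methods, reads were aligned with Bowtie2 2.2.5 (very sensitive, local) to Ensembl GRCm38 cDNA and ncRNA sequences and counted per gene where the mapping quality was at least 1, so reads shared by near-identical copies may be lost. The deposited values used here are raw counts per gene, not normalized. A second deposited table of transcripts and one of detected genes were not used, and 0 value columns lacked a sample.

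Genes were filtered with filterByExpr and tested with edgeR 4.0.16 (R 4.3.3, TMM factors, quasi-likelihood F test, Benjamini-Hochberg threshold 0.05). All 22 libraries shared 1 fit for the comparisons with primed cells and between passages, and the 8 cultures shared another, with AICAR and day as terms. The first and second comparisons share the primed libraries. The standard error is the log2 fold change divided by the square root of F. Alternatives were DESeq2 1.42.0, limma 3.58.1 voom, no factors, no filter, single libraries left out, subsets of groups or lines and other covariates. The steps were tested on simulated data. Exact binomial intervals came from scipy 1.17.1. Levels per library used TMM factors over 22 libraries, and correlations used log2(CPM + 0.5). Totals of 438771 to 5290163 counts make 3 counts the floor for low genes.

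The members and lists were chosen with earlier results of these data known. Named besides the members were, per list, comparison and direction, up to 3 genes with the largest fold change among those called, with groups that did not overlap and a mean log2 CPM of 3 or more, and the 5 genes most correlated with Cdh1 and with Vim. Positions came from GENCODE for GRCm38, and promoter sequence from RefSeq GRCm38.p6.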

Additional observations from a re-analysis of the deposited data

Results flagged for a closer look

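Of 40 groups of member levels with 4 to 7 libraries, 4 held a library apart from the rest of its group by Dixon's test at the 95% level, where chance gives about 1 group in 20. Cdh1 was at 684.9 CPM in AICAR d16+3p, the highest of the d16+2-3p libraries, with a gap to the next of 0.868 of the range. In that library the median gene of chromosome 8, where Cdh1 lies, stood 0.394 above the other chromosomes on the log2 scale. The part of this in the Cdh1 level was not tested. Snai1 was at 12.73 CPM in AICAR d16+2p, again the highest at d16+2-3p (0.879 of the range). Zeb2 was at 83.01 CPM in AICAR+LIF d8, the lowest of the d8 cultures (0.852). Esrp1 was at 2.978 CPM in metformin+LIF d16+10p, the highest of 7 (0.747), and 4 of the others had no count.

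Each of the 10 members was looked at for line and for day. In 3 cases every library of a group lay on one side of its controls and every library of the other group on the opposite side. The share of such cases among all genes was not computed, so 3 cannot be called many or few. The change of Esrp2 from primed to d16+10p differed by 4.682 (log2) and that of Snai1 by 4.801 between Oct4GIP and 129/MSM. The AICAR effect on Esrp2 differed by -5.018 between d16 and d8. These separations rested on few counts. In each line the control was 1 primed library, and Snai1 had 1 count both in primed Oct4GIP cells and in AICAR d16+10p. At d16 Esrp2 had 2 counts in AICAR and 2 in AICAR+LIF, against 5 in basal medium and 3 in 2iL. The differences were tested with edgeR and did not pass, with adjusted p = 0.115, 0.185 and 0.166.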

How the results depend on the processing

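Values of the members were recomputed 729 times, of which 647 kept their direction and side of the threshold. The members called numbered 3 to 4 at d16+10p against primed cells and 7 to 9 in the cultures against primed cells under all alternatives run. The other counts moved. With AICAR they were 5 with no filter and 0 without AICAR d8 and AICAR+LIF d8, with no day term and in d16 cultures only (3, 4 and 3 at an unadjusted p under 0.05 in edgeR), and 1 to 4 with 1 library left out. For d16 against d8 they were 1 with DESeq2, 1 with limma voom, 4 with no filter, 1 without AICAR d8 and AICAR+LIF d8, and 0 to 5 with 1 library left out. For d16+10p against d16+2-3p they were 1 without normalization factors, 5 with only the groups compared, 1 in Oct4GIP libraries only, and 1 to 2 with 1 library left out. Over all genes, calls fell from 6862 to 4463 at d16+10p against primed cells and from 7033 to 4113 in the cultures without the primed Oct4GIP library, and to 4597 in the latter with only the groups compared. With AICAR, 1356 calls became 2200 with DESeq2, 3143 with no filter, 37 with no day term, 0 in d16 cultures only or without AICAR d8 and AICAR+LIF d8 (2523 and 3010 at an unadjusted p under 0.05 in edgeR), and 208 (without AICAR d8) to 2693 (without 2iL d16) with 1 library left out. For d16 against d8, 4590 became 2348 without 2iL d8 and 2779 without basal d8. Between passages, 1753 became 3002 with only the groups compared, and 936, 965 and 1084 without AICAR d16+2p, AICAR+LIF d16+2p and AICAR d16+3p. No member's called change turned direction, but values that had not passed did. In Oct4GIP libraries only, Esrp2 (2.72), Zeb1 (-0.041) and Vim (0.14) turned at d16+10p against primed cells, and Cdh2 (-0.042) against d16+2-3p. With limma voom, Esrp2 was 0.26 at d16+10p against primed cells, and Vim 0.0059 with AICAR, or 0.092 without normalization factors. Without AICAR d8 and AICAR+LIF d8, Cdh1 was 0.94 at d16 against d8. With 1 library left out, ranges at d16+10p against primed cells were -0.57 to 3.30 for Snai1, -1.71 to 2.62 for Esrp2 and -0.044 to 0.56 for Zeb1. They were -0.12 to 0.10 for Vim and -0.081 to 1.17 for Snai1 with AICAR, and -0.082 to 0.37 for Esrp2 between passages. The cause was not tested. No paired analysis was possible by replicate because the labels number no replicates. The d8 and d16 cultures share treatments, and with treatment as a block 0 members passed for d16 against d8 in edgeR (4 at an unadjusted p under 0.05). Single primed libraries and low counts of Esrp1, Esrp2, Snai1, Snai2 and Zeb2 limit these results.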
